A study of Saccharomyces cerevisiae with 12 samples.

Results

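The genes described here encode the histone chaperones and chromatin remodelers of budding yeast, *Saccharomyces cerevisiae*. The set was chosen by systematic gene name and holds 17 genes for chaperones and 24 genes for remodelers, 41 of the 7123 genes in the count table. All 41 had at least 10 reads in total and were among the 6490 genes tested. Polyadenylated RNA of WT and *rad30Δ* cells, all W303 derivatives, was sequenced in 4 groups of 3 libraries. *RAD30* encodes polymerase η, a translesion DNA polymerase. The groups were *rad30Δ* after DSB induction, *rad30Δ* in G2/M arrest, WT after DSB induction and WT in G2/M arrest. Every culture had grown in 2% raffinose and been held for 3 hours with 80 µg/ml benomyl, which arrests cells in G2/M. The DSB groups had then received 2% galactose for 1 hour, which switches on the HO endonuclease from the *GAL* promoter, so that the effect of the break cannot be told apart from that of galactose. The comparisons asked how absence of polymerase η and formation of DSBs altered transcription.

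Histone chaperones carry histones that are not in nucleosomes and hand them to DNA or take them off it. Asf1, CAF-1, Rtt106 and the Rtt109-Vps75 pair act mainly in assembly of new nucleosomes behind replication forks, HIR acts outside S phase, and FACT and Spt6 travel with RNA polymerase II. Remodelers use ATP to slide, eject or edit nucleosomes: RSC opens promoters, ISW1, ISW2 and Chd1 space nucleosomes, and SWR1 exchanges H2A for the variant H2A.Z while INO80 acts on H2A.Z nucleosomes and at DSBs.

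*RAD30* itself had 0 reads in all 6 *rad30Δ* libraries and between 229 and 350 reads in the WT libraries. Libraries held between 5442935 and 7289514 reads assigned to genes, and the 41 genes took 0.403% to 0.532% of them. The *rad30Δ* library of replicate 3 after DSB induction stood apart, with a normalization factor of 0.873 and 0.205% mitochondrial reads, against at most 0.0743% in the other libraries. Its values are given with the results that rest on it. The 7 a-specific genes summed to 82 to 127 CPM in *rad30Δ* libraries against 1329 to 1763 CPM in WT libraries, and the 4 α-specific genes summed to 2482 to 5863 CPM in *rad30Δ* libraries against 161 to 210 CPM in WT libraries. The strains thus differed in mating type genes as well as in *RAD30*, and these cannot be told apart. Levels are given as CPM, read counts scaled to a common library size that TMM adjusts. A gene was called higher or lower at an adjusted p under 0.05 in the quasi-likelihood test of edgeR, adjusted over all 6490 genes by Benjamini-Hochberg, and fold changes are log2 values with SE. Triplicates were not stated to be separate cultures, so p-values measure only the spread between these libraries.

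Promoter sequences are shown for the genes whose RNA changed most or whose promoters share a cell cycle motif. They are from the R64 assembly of RefSeq, read 5′ to 3′ on the strand of the gene, with positions counted back from the start codon. The motifs searched on both strands in the 250 bases before and the first 50 bases of each gene were ACGCGT, the site of the G1/S factor MBF, CGCGAAA, a form of the site of the G1/S factor SBF, CCCCT, the stress element read by Msn2 and Msn4, and TATAAA. A match is only a match of letters. In the *ASF1* stretch (chrX:196037-196186, plus strand), the capitals mark ACGCGT, which starts 216 and 180 bases before the start codon.
ASF1: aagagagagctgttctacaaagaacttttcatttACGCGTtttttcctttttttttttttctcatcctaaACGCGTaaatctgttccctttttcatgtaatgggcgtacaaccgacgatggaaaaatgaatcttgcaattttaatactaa
ACGCGT was found in 3 of the 41 windows (7.32%), those of *ASF1*, *RLF2* and *RTT106*, against 3.07% of 6001 windows of all genes. *RLF2* encodes the large subunit of CAF-1 and Rtt106 is a chaperone of H3-H4. The *RLF2* stretch (chrXVI:594234-594259, plus strand) and the *RTT106* stretch (chrXIV:258270-258295, minus strand) show the matched letters in capitals. The matches start 232 and 222 bases before the start codon of *RLF2* and 130 bases before that of *RTT106*.
RLF2: atatatgctcACGCGTtcggACGCGT
RTT106: ctagttaatgACGCGTcgtgcttttt
CGCGAAA was found in 5 of the 41 windows (12.2%), against 3.60% of all windows. It lay 125 bases before the start codon of *MSI1* (chrII:611991-612017, minus strand), 127 before that of *HIR3* (chrX:695807-695833, minus strand), 129 before that of *HIR2* (chrXV:405501-405527, minus strand) and 152 before that of *POB3* (chrXIII:135338-135364, plus strand). In *HIR1*, the match starts at base 44 of the coding sequence and is not shown.
MSI1: tttattgtgtCGCGAAAagtaaaaatt
HIR3: tatgtgccatCGCGAAAttatttattg
HIR2: caaaaaaaagCGCGAAAaaaatatcag
POB3: cccggttcaaCGCGAAAcgaatcgtta
These 4 promoters belong to a CAF-1 subunit, a pair of HIR subunits and a FACT subunit, and of their genes *MSI1* alone was called in any comparison. CCCCT was in 17.1% of the 41 windows and 21.6% of all windows, and TATAAA in 48.8% and 45.2%.

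To place the genes on 1 scale, levels per gene length (RPKM) were compared in WT cells in G2/M arrest. The 41 genes ran between 1.70 and 535 RPKM, with a median of 57.4 RPKM against 60.3 RPKM over all genes, and 17 of them lay above that median of all genes. The highest were the HMG-box proteins that act with FACT, *NHP6A* at 535 ± 86.9 RPKM and *NHP6B* at 298 ± 33.7 RPKM (SD, n = 3), which were followed by *ASF1* at 227 ± 0.596 RPKM. *NHP6A* and *NHP6B* are short, at 282 and 300 bp, and overlap other annotated genes over 187 and 157 bases, so their levels are uncertain. The HIR genes were low, with 12.7 RPKM for *HIR3*, 26.3 RPKM for *HIR2*, 28.7 RPKM for *HIR1* and 40.4 RPKM for *HPC2*. Within SWR1 the spread was wide: *SWC5*, a small subunit that binds histones, stood at 154 RPKM and *SWR1*, the catalytic subunit, at 28.4 RPKM. *SWC7*, encoding a small SWR1 subunit of little known function, stayed at or below 1.0 CPM in every library, too few reads to compare groups.

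**Figure D1:**
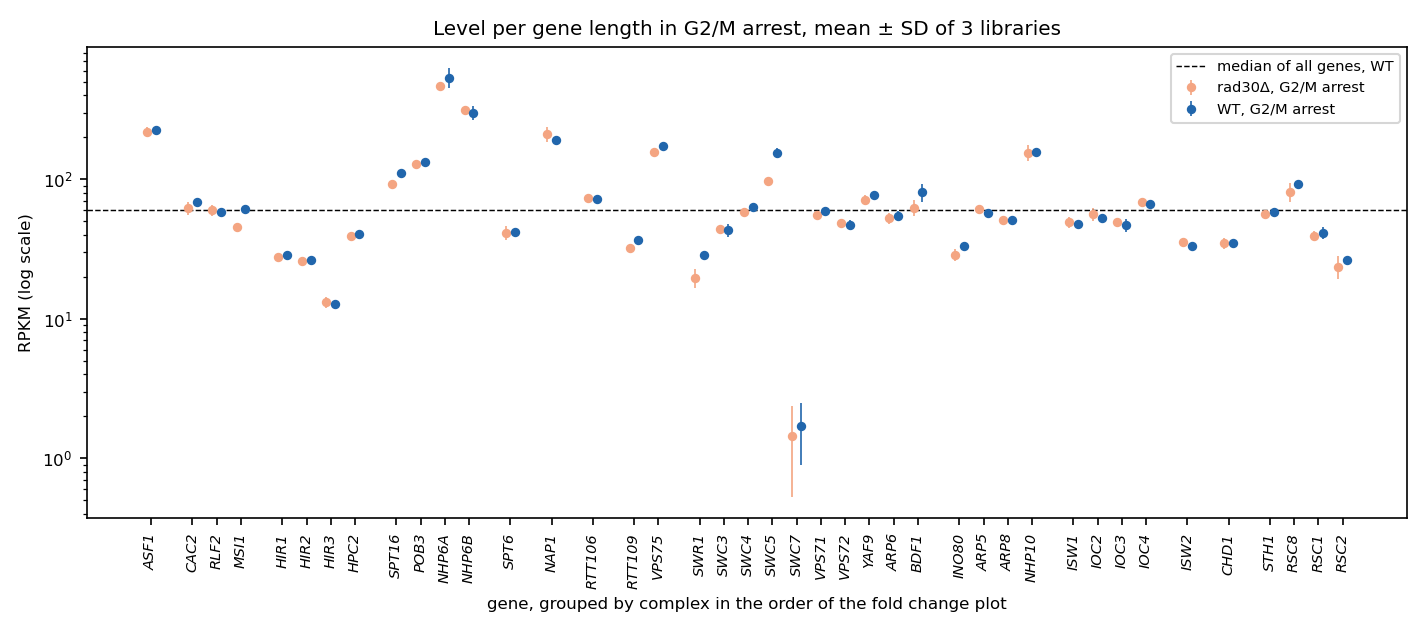
Level per gene length of each of the 41 genes in G2/M arrest, as mean RPKM of 3 libraries on a log axis with SD bars, for *rad30Δ* (orange, left of each pair) and WT (blue). The dashed line is the median of all genes in WT, 60.3 RPKM. *SWC7* lies far below the other genes, and the *rad30Δ* points of *SWC5*, *SWR1* and *MSI1* lie below their WT points.

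In G2/M arrest without a DSB, *rad30Δ* cells had lower levels than WT cells of 4 of the 41 genes (9.76%) and higher levels of 0. Over all genes tested, 6.1% were lower and 4.71% higher. The 4 genes were *SWC5* and *SWR1* of the H2A.Z-depositing remodeler, *SPT16* of FACT and *MSI1* of CAF-1. By edgeR at an unadjusted p under 0.05, 8 genes were lower and 0 higher, against 12.1% lower and 10.9% higher over all genes, and DESeq2 also called 0 higher. The *rad30Δ* libraries lay wholly below WT for 9 genes and wholly above for 1, against 16.6% below and 15.7% above over all genes. The median log2 fold change was -0.04, against -0.00 over all genes.

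*SWC5* (YBR231C, chrII:682179-683090, minus strand) differed most between the strains. It had 84.6, 88.7 and 93.9 CPM in *rad30Δ* libraries in G2/M arrest, against 131, 138 and 153 CPM in WT libraries. The groups did not overlap, and the highest *rad30Δ* library was well below the lowest WT library. The log2 fold change was -0.66 ± 0.08 (adjusted p = 1.77e-04 by edgeR). *SWR1* (YDR334W, chrIV:1135932-1140476), the ATPase that gives the complex its name, had 102, 93.0 and 74.2 CPM in *rad30Δ* libraries against 121, 133 and 134 CPM in WT libraries, a log2 fold change of -0.53 ± 0.11 (adjusted p = 0.00718 by edgeR). All *rad30Δ* libraries were again below all WT libraries. The other 8 SWR1 genes were not called. Of these *BDF1*, a bromodomain protein that binds acetylated H4 and works with SWR1 and TFIID, came nearest, with 126, 148 and 113 CPM in *rad30Δ* libraries against 141, 188 and 167 CPM in WT libraries, overlapping groups and a log2 fold change of -0.36 ± 0.11 (adjusted p = 0.0511 by edgeR, 0.0251 by DESeq2).

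The upstream region of *SWC5* is shown because it is shared with a second gene. The 337 bases between *SWC5* and *PBP2*, which is transcribed away from it, include the stretch chrII:683191-683340 (minus strand). This is the first 150 of the 250 bases before the *SWC5* start codon. It holds none of the 4 motifs, while beyond it TATAAA starts 5 bases before the start codon.
SWC5: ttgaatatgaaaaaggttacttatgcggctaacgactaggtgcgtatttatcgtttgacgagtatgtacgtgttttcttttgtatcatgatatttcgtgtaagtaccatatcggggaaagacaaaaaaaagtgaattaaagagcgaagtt
*PBP2*, encoding an RNA-binding protein of the KH domain type, was also lower in *rad30Δ*, with a log2 fold change of -0.27 in G2/M arrest (adjusted p = 0.0484 by edgeR) and -0.45 after DSB induction (adjusted p = 0.00172 by edgeR).

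*SPT16* (YGL207W, chrVII:98969-102076), the large FACT subunit, had 288, 286 and 291 CPM in *rad30Δ* libraries in G2/M arrest, against 332, 348 and 351 CPM in WT libraries. The 2 groups were tight and apart, with a log2 fold change of -0.25 ± 0.06 (adjusted p = 0.0185 by edgeR). Its partner *POB3* had a log2 fold change of -0.05 ± 0.07, so that the 2 FACT subunits did not give the same call. *MSI1* (YBR195C, chrII:610614-611882), the small CAF-1 subunit, had 59.5, 55.8 and 58.2 CPM in *rad30Δ* libraries against 73.9, 78.7 and 80.2 CPM in WT libraries. Here too the groups were apart, with a log2 fold change of -0.42 ± 0.11 (adjusted p = 0.0322 by edgeR). The other CAF-1 genes, *CAC2* and *RLF2*, had log2 fold changes of -0.15 ± 0.09 and 0.05 ± 0.08. The call of *MSI1* was lost when any 1 of the 6 compared libraries was left out (adjusted p up to 0.108), and that of *SPT16* when WT replicate 2 or 3 or *rad30Δ* replicate 1 or 2 in G2/M arrest was left out (adjusted p up to 0.0800).

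**Figure D2:**
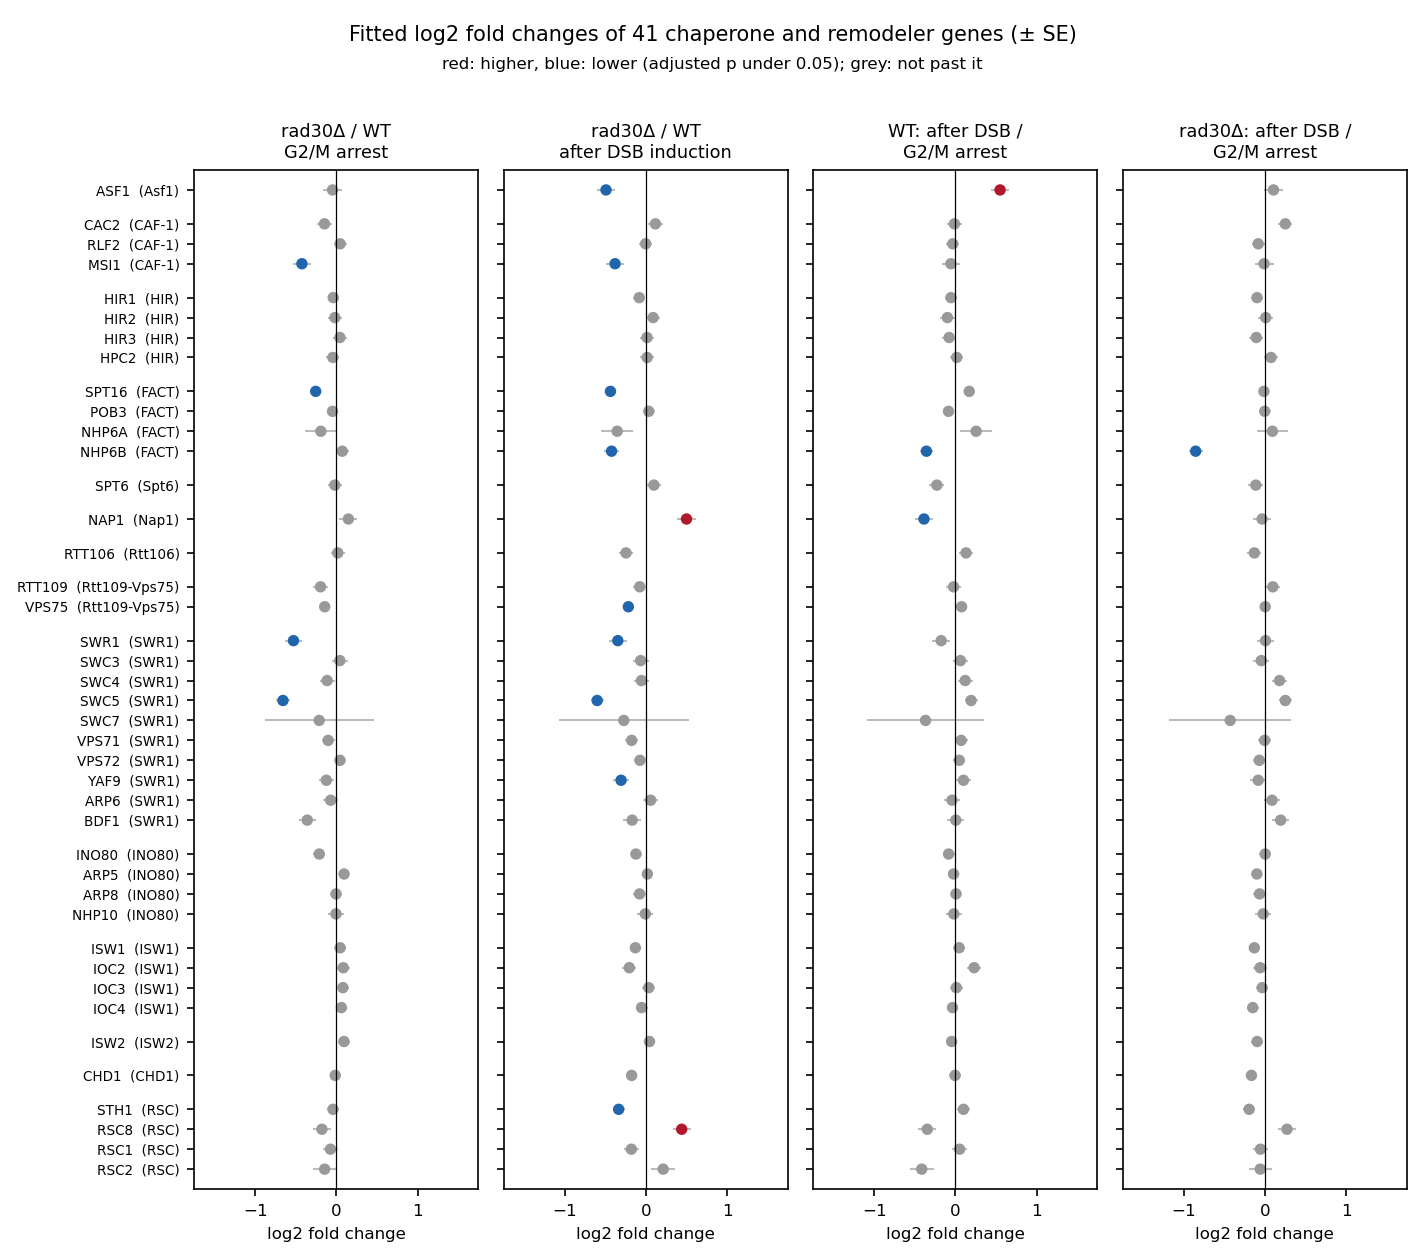
Fitted log2 fold changes with SE for the 41 genes, ordered by complex, in each of 4 comparisons. Red and blue points are genes called higher and lower, and grey points were not called. *SWC5*, *SWR1*, *SPT16* and *MSI1* are blue in both comparisons of *rad30Δ* with WT, and the wide bars are those of *SWC7*.

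After DSB induction the strains differed at more of the 41 genes, and at more of all genes tested as well. In G2/M arrest, 6.1% of all genes had been lower and 4.71% higher. In *rad30Δ*, 9 of the 41 genes were lower than in WT (22%) and 2 were higher (4.88%), against 11.8% and 11.6% of all genes tested. Among chaperones, *ASF1*, *MSI1*, *SPT16*, *NHP6B* and *VPS75* were lower and *NAP1* was higher. Among remodelers, *SWR1*, *SWC5* and *YAF9* of SWR1 and *STH1* of RSC were lower and *RSC8* of RSC was higher. The 4 genes lower in G2/M arrest were called again. The *rad30Δ* libraries lay wholly below WT for 15 genes and wholly above for 2, against 18.8% and 17.8% of all genes. The median log2 fold change was -0.08, against 0.00 over all genes.

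*ASF1* (YJL115W, chrX:196287-197126) encodes the chaperone that presents H3-H4 to Rtt109, CAF-1 and HIR. It had 155, 223 and 218 CPM in *rad30Δ* libraries after DSB induction, against 270, 278 and 288 CPM in WT libraries. The *rad30Δ* libraries were spread over a wider range but all lay below WT, with a log2 fold change of -0.49 ± 0.11 (adjusted p = 0.00900 by edgeR). *SPT16* had 294, 290 and 272 CPM in *rad30Δ* libraries against 379, 381 and 399 CPM in WT libraries. Its log2 fold change of -0.44 ± 0.06 (adjusted p = 3.23e-04 by edgeR) came with groups far apart. *SWC5* had 98.6, 113 and 107 CPM in *rad30Δ* libraries against 152, 158 and 172 CPM in WT libraries, and its log2 fold change was -0.60 ± 0.08 (adjusted p = 2.43e-04 by edgeR). *MSI1* gave 60.0, 66.6 and 44.6 CPM in *rad30Δ* libraries and 77.3, 79.1 and 67.7 CPM in WT libraries, apart by little, with a log2 fold change of -0.38 ± 0.12 (adjusted p = 0.0332 by edgeR).

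*NHP6A* (YPR052C, chrXVI:665693-665974) and *NHP6B* (YBR089C-A, chrII:426190-426489) encode near-identical HMG-box proteins that bend DNA and help FACT loosen nucleosomes. *NHP6B* had 49.7, 51.6 and 55.7 CPM in *rad30Δ* libraries after DSB induction against 70.5, 70.4 and 68.9 CPM in WT libraries. Neither group varied much and they did not overlap, with a log2 fold change of -0.42 ± 0.09 (adjusted p = 0.00457 by edgeR). *NHP6A* had 107, 116 and 202 CPM in *rad30Δ* libraries and 197, 164 and 178 CPM in WT libraries. Its high *rad30Δ* value is that of replicate 3, the library that stood apart. The log2 fold change of *NHP6A* was -0.35 ± 0.20 and not called (adjusted p = 0.221 by edgeR), and without that library it was -0.69 and called (adjusted p = 7.80e-04 by edgeR).

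The upstream stretches of this pair are set side by side because *NHP6B* changed most of the 41 genes in any comparison and *NHP6A* is its paralog. They are the first 150 of the 250 bases before each start codon, at chrII:426590-426739 for *NHP6B* and chrXVI:666075-666224 for *NHP6A*, both on the minus strand. The capitals mark TATAAA, which is in the *NHP6B* stretch 241 bases before the start codon and is absent from that of *NHP6A*. Beyond the stretch, *NHP6B* has CCCCT 81 bases and TATAAA again 15 bases before the start codon. The window of *NHP6A* held no match to any motif searched.
NHP6B: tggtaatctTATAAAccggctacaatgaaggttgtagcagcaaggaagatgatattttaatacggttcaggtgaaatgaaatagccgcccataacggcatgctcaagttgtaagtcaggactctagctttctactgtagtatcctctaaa
NHP6A: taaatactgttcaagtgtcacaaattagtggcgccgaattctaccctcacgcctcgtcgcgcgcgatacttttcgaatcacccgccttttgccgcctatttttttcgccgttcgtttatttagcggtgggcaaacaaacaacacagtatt
The coding sequences of *NHP6A* and *NHP6B* were identical at 212 of 280 aligned bases (75.7%), with a longest identical run of 13 bases. Each gene also overlaps a second annotated gene on its own strand, *NHP6B* by 157 bases and *NHP6A* by 187 bases, and reads in such an overlap cannot be told apart, so that their levels are uncertain.

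Of the pair that acetylates H3 with Asf1, *VPS75* (YNL246W, chrXIV:185460-186349) was lower, with 120, 126 and 129 CPM in *rad30Δ* libraries after DSB induction against 153, 137 and 145 CPM in WT libraries. The groups were apart and the log2 fold change was small, -0.22 ± 0.06 (adjusted p = 0.0241 by edgeR). *RTT109*, the acetyltransferase itself, had a log2 fold change of -0.07 ± 0.09. *NAP1* (YKR048C, chrXI:525387-526640), a chaperone of H2A-H2B, was higher, with 290, 271 and 217 CPM in *rad30Δ* libraries against 189, 188 and 174 CPM in WT libraries. Every *rad30Δ* library was above every WT library, with a log2 fold change of 0.50 ± 0.11 (adjusted p = 0.00702 by edgeR).

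In RSC, the essential remodeler of promoters, 2 core subunits moved in opposite directions. *STH1* (YIL126W, chrIX:117992-122071), the ATPase, had 181, 208 and 218 CPM in *rad30Δ* libraries after DSB induction against 263, 250 and 253 CPM in WT libraries, all below WT, with a log2 fold change of -0.33 ± 0.08 (adjusted p = 0.00730 by edgeR). *RSC8* (YFR037C, chrVI:227513-229186), a scaffold subunit with a SWIRM domain, had 166, 146 and 182 CPM in *rad30Δ* libraries against 133, 115 and 116 CPM in WT libraries. All its *rad30Δ* libraries were above WT, with a log2 fold change of 0.44 ± 0.11 (adjusted p = 0.0142 by edgeR). The bromodomain subunits that define the 2 forms of RSC, *RSC1* and *RSC2*, had log2 fold changes of -0.18 ± 0.09 and 0.21 ± 0.15 and were not called. *RSC2* is overlapped over 514 bases by a gene on the other strand, YLR358C, whose log2 fold change was -1.01 (adjusted p = 0.00270 by edgeR), and without a stated strand setting reads of the 2 cannot be told apart.

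The remaining calls lay in SWR1. *SWR1* had 89.3, 97.3 and 83.3 CPM in *rad30Δ* libraries after DSB induction against 108, 127 and 108 CPM in WT libraries, apart, with a log2 fold change of -0.35 ± 0.11 (adjusted p = 0.0385 by edgeR). *YAF9* (YNL107W, chrXIV:420098-420778), a YEATS domain subunit that SWR1 shares with the NuA4 acetyltransferase, had 50.4, 45.9 and 40.1 CPM in *rad30Δ* libraries against 53.3, 59.8 and 56.1 CPM in WT libraries. These groups were also apart, with a log2 fold change of -0.31 ± 0.10 (adjusted p = 0.0357 by edgeR). Of the 10 SWR1 genes, 3 were called lower, against 11.8% of all genes tested.

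Between the strains after DSB induction, the calls of *SPT16*, *NHP6B*, *SWC5* and *NAP1* held in all 18 alternatives. With the compared groups fitted alone, *ASF1* (adjusted p = 0.0611 by edgeR), *STH1* (adjusted p = 0.0564), *MSI1*, *VPS75*, *SWR1* and *YAF9* were not called. Without *rad30Δ* replicate 3, *SWR1* (adjusted p = 0.0716) and *YAF9* (adjusted p = 0.0813) were not called by edgeR, *NHP6A*, *RTT106* and *VPS71* were called lower and *HIR2* higher. Leaving out other libraries ended the calls of *MSI1* (WT replicates 1 and 2, adjusted p up to 0.161 over all alternatives), *VPS75* (WT replicates 1 and 3 and *rad30Δ* replicate 1, up to 0.125), *YAF9* (each WT replicate and *rad30Δ* replicate 2, up to 0.125), *RSC8* (WT replicates 2 and 3, up to 0.0608) and *SWR1* (each WT replicate and *rad30Δ* replicate 1 after DSB induction, and WT replicates 2 and 3 and *rad30Δ* replicate 2 in G2/M arrest, up to 0.157).

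**Figure D3:**
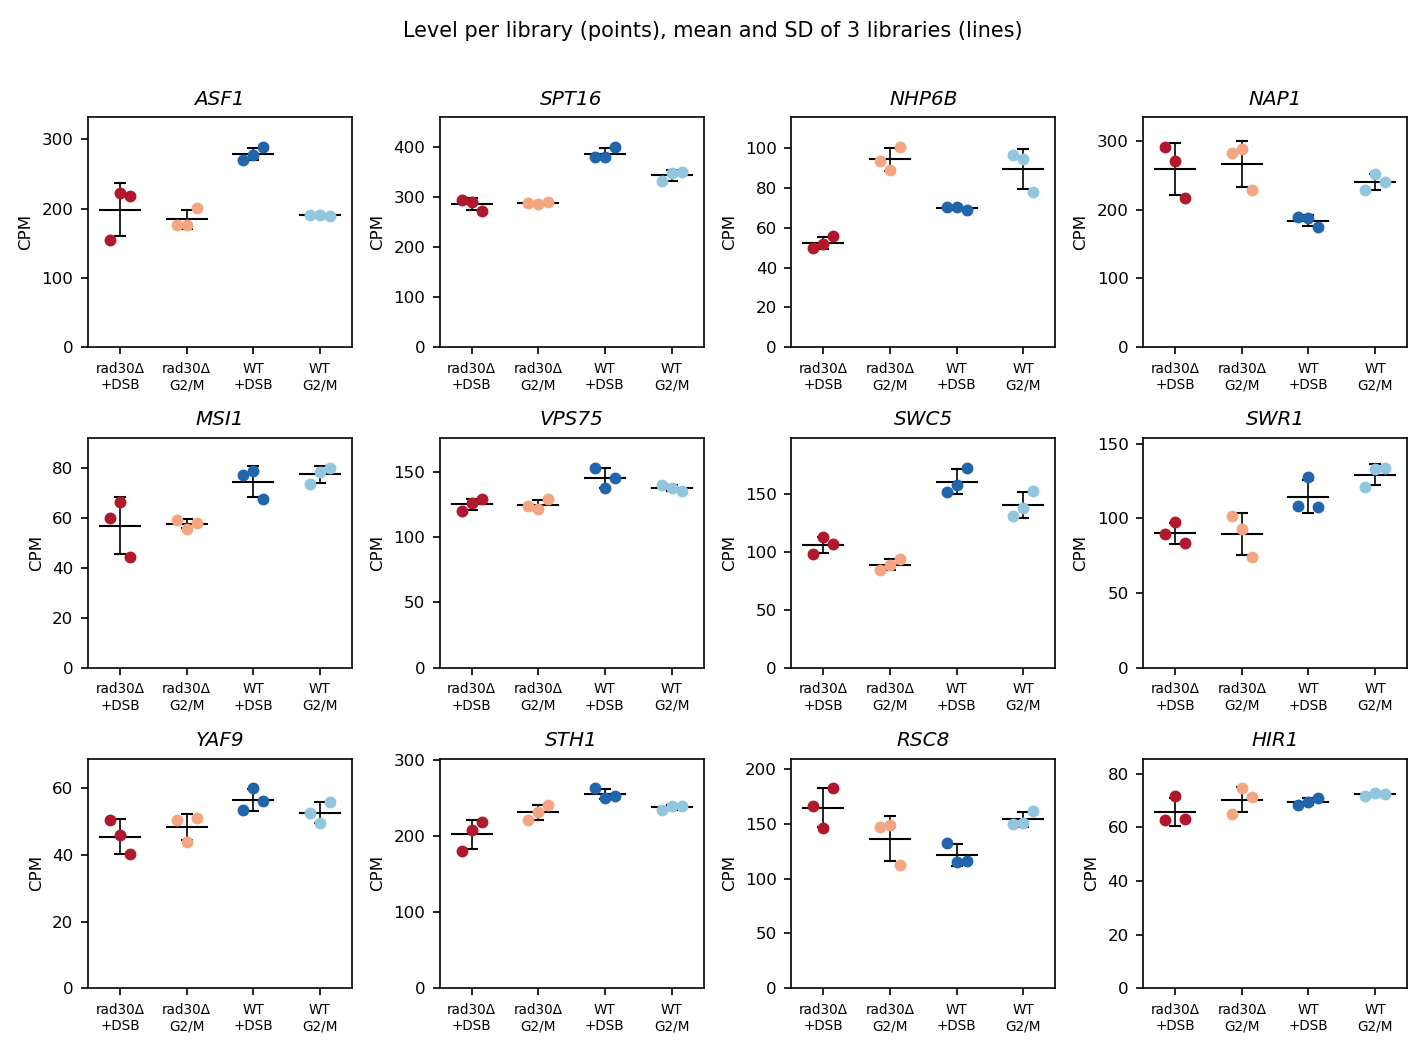
CPM of 12 genes in each library (points) with the mean and SD of 3 libraries (black lines), in the order *rad30Δ* after DSB induction, *rad30Δ* in G2/M arrest, WT after DSB induction and WT in G2/M arrest. The first 11 panels are the genes called in at least 1 comparison and the last, *HIR1*, is a gene that was not called, with 62.6 to 74.5 CPM in all libraries.

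Of the 11 genes called in at least 1 comparison, 6 have a neighbour that is transcribed away from a common upstream region. In 3 of these 6, the neighbour was called in the same direction between the strains after DSB induction, against 11.8% lower and 11.6% higher over all genes. Of 13 tested neighbours of this kind beside the other genes, 0 were lower and 1 was higher. Besides *PBP2* beside *SWC5*, these were *RRT14*, 347 bases from *STH1*, with a log2 fold change of -0.38 (adjusted p = 0.0121 by edgeR), and *NCA3*, 1413 bases from *ASF1*, with -0.47 (adjusted p = 0.0217 by edgeR). *RQC1* beside *SWR1*, YNL108C beside *YAF9* and *IRC5* beside *RSC8* were not called. The 6 genes were picked by their own calls in these data, and neighbours are not replicates. Whether a common upstream region had a part was not tested.

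In WT after 1 hour of DSB induction, 1 gene of the 41 was higher than in G2/M arrest (2.44%) and 2 were lower (4.88%), against 6.07% and 6.29% of all genes tested. With the compared groups fitted alone, 4 were higher and 5 lower. These counts cannot be set against the shares above, which are of the fit over all 12 libraries. *ASF1* was the gene that was higher, with 270, 278 and 288 CPM in WT libraries after DSB induction against 190, 191 and 190 CPM in WT libraries in G2/M arrest. Replicates were close and the groups far apart, with a log2 fold change of 0.55 ± 0.11 (adjusted p = 0.00883 by edgeR). *NCA3*, the distant neighbour of *ASF1*, was also higher, with 1.21 (adjusted p = 1.13e-04 by edgeR), but it was called too where *ASF1* was not, with -1.11 between the strains in G2/M arrest and 1.84 in *rad30Δ* after DSB induction. *NAP1* was lower, with 189, 188 and 174 CPM after DSB induction against 229, 251 and 240 CPM in G2/M arrest and a log2 fold change of -0.39 ± 0.11 (adjusted p = 0.0400 by edgeR). *NHP6B* was lower as well, with 70.5, 70.4 and 68.9 CPM after DSB induction against 96.3, 94.3 and 77.9 CPM in G2/M arrest and a log2 fold change of -0.36 ± 0.08 (adjusted p = 0.0170 by edgeR). In both genes the groups were apart. *SPT16* had 379, 381 and 399 CPM after DSB induction against 332, 348 and 351 CPM in G2/M arrest, groups that did not overlap. Its log2 fold change of 0.17 was not called (adjusted p = 0.0847 by edgeR). DESeq2 called it higher (adjusted p = 0.0189). So did edgeR with the compared groups alone (adjusted p = 0.0181) and without *rad30Δ* replicate 3 after DSB induction (adjusted p = 0.0309). Libraries after DSB induction lay wholly above those in G2/M arrest for 7 genes and wholly below for 7, against 22.9% of all genes in either direction, and the median log2 fold change was -0.01.

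None of the 24 remodeler genes was called in WT after DSB induction. By edgeR at an unadjusted p under 0.05, 2 were higher and 2 lower, against 13.8% higher and 14.8% lower over all genes, and DESeq2 called *RSC8* lower (adjusted p = 0.0415). With the compared groups fitted alone, edgeR called *RSC8* (adjusted p = 0.00134) and *RSC2* (adjusted p = 0.00542) lower and *IOC2* (adjusted p = 0.0112) and *SWC5* (adjusted p = 0.0455) higher. *RSC8* had 133, 115 and 116 CPM in WT libraries after DSB induction against 150, 150 and 162 CPM in G2/M arrest, groups that did not overlap, with a log2 fold change of -0.35 ± 0.11 (adjusted p = 0.0624 by edgeR). *RSC2* had 53.5, 60.0 and 44.0 CPM against 65.0, 73.6 and 71.0 CPM in G2/M arrest, also apart, with -0.41 ± 0.15 (adjusted p = 0.0827 by edgeR). *IOC2*, which with Isw1 and Ioc4 forms a complex in gene bodies, had 151, 145 and 159 CPM against 121, 135 and 132 CPM in G2/M arrest and a log2 fold change of 0.23 ± 0.08 (adjusted p = 0.0906 by edgeR). The call of *ASF1* held in all 18 alternatives. The call of *NAP1* ended without any 1 of the 6 WT libraries or *rad30Δ* replicate 1 in G2/M arrest (adjusted p up to 0.149), and that of *NHP6B* without WT replicate 1 or 2 in G2/M arrest or any 1 of the 3 WT libraries after DSB induction (up to 0.0732).

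In *rad30Δ*, *NHP6B* was the gene called after DSB induction, 1 of 41 lower (2.44%) and 0 higher, against 2.65% and 3.68% of all genes tested. It had 49.7, 51.6 and 55.7 CPM in *rad30Δ* libraries after DSB induction against 93.6, 89.0 and 100.3 CPM in *rad30Δ* libraries in G2/M arrest. Every library after DSB induction lay far below every library in G2/M arrest, with a log2 fold change of -0.85 ± 0.09 (adjusted p = 4.37e-05 by edgeR), and the call held in all 18 alternatives. *NHP6A* had 107, 116 and 202 CPM after DSB induction against 129, 128 and 140 CPM in G2/M arrest, overlapping groups with a log2 fold change of 0.09 ± 0.20, and of -0.25 without replicate 3 after DSB induction (adjusted p = 0.197 by edgeR). At an unadjusted p under 0.05, edgeR had 3 of the 41 genes higher and 3 lower, against 776 and 650 of the 6490 genes tested, and DESeq2 called 0 higher. *ASF1* had a log2 fold change of 0.11 ± 0.11 and *NAP1* of -0.03 ± 0.11 in *rad30Δ*, and neither was called. Libraries after DSB induction lay wholly above for 1 gene and wholly below for 5, against 11.3% and 10.5% of all genes.

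Equal replicate numbers deviated together in *rad30Δ*. With the replicate as a block, 2 of the 41 genes were called higher there, against 296 of the 6490 genes tested. They were *CAC2* of CAF-1 (log2 fold change 0.25, adjusted p = 0.0495 by edgeR) and *SWC5* (0.25, adjusted p = 0.0393 by edgeR). *CAC2* had 107, 113 and 92.5 CPM in *rad30Δ* libraries after DSB induction against 82.9, 98.4 and 81.8 CPM in G2/M arrest, higher in each replicate. *SWC5* had 98.6, 113 and 107 CPM against 84.6, 88.7 and 93.9 CPM, with groups apart. Without *rad30Δ* replicate 3 after DSB induction, *CAC2* was called higher (adjusted p = 0.0241 by edgeR) and *STH1* lower (log2 fold change -0.25, adjusted p = 0.0426 by edgeR).

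The difference between the strains in their change after DSB induction was tested as an interaction of strain and induction. It was called for 0 of the 41 genes in either direction, against 0.0616% lower and 0% higher over all genes. At an unadjusted p under 0.05, edgeR had 2 genes higher and 5 lower, against 7.06% and 6.3% of all genes. DESeq2 called *RSC8* (0.62, adjusted p = 0.0426), which edgeR did not (0.62 ± 0.16, adjusted p = 0.161). For *NHP6B* the interaction was -0.50 ± 0.12 (adjusted p = 0.153 by edgeR), and -0.54 without *rad30Δ* replicate 3 after DSB induction (adjusted p = 0.0449 by edgeR). For *ASF1* it was -0.44 ± 0.16 (adjusted p = 0.258 by edgeR) and for *NAP1* 0.35 ± 0.16 (adjusted p = 0.359 by edgeR), so a strain difference in the change of either was not shown.

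**Figure D4:**
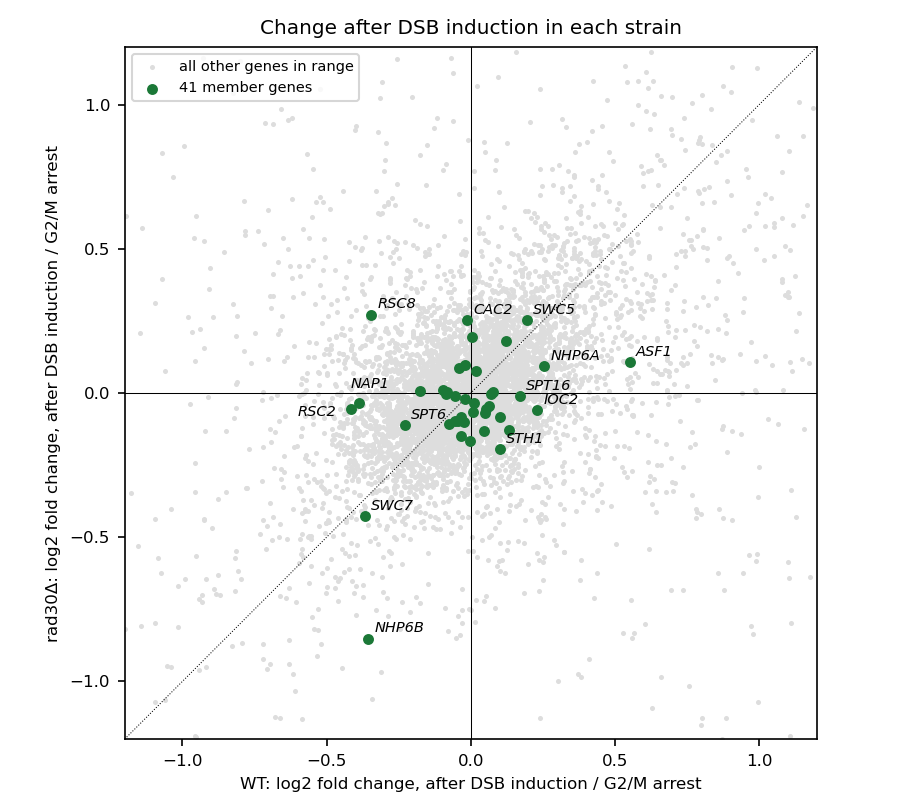
Log2 fold change after DSB induction over G2/M arrest in WT (x axis) and in *rad30Δ* (y axis), for the 41 genes (green) and all other genes (grey). The axes end at 1.2 in either direction, which leaves 261 of the 6490 genes outside, none of them green. *NHP6B* lies low in both strains, *ASF1* far to the right and near 0 in *rad30Δ*, and *RSC8* on opposite sides of 0.

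The HIR, INO80, ISW1, ISW2 and Chd1 genes, with *SPT6* and *RTT106*, were not called in any of the 5 comparisons as fitted over all 12 libraries. By edgeR, *INO80* was called in G2/M arrest without *rad30Δ* replicate 2 (adjusted p = 0.0234), *CHD1* between the strains after DSB induction without *rad30Δ* replicate 3 in G2/M arrest (adjusted p = 0.0446), and *SPT6* in WT with the compared groups fitted alone (adjusted p = 0.0112). The 4 HIR genes, which repress histone genes outside S phase, had log2 fold changes between -0.11 and 0.09 in comparisons of 2 groups. Their interaction values lay between -0.04 and 0.11, and *HIR1* (YBL008W) stayed between 62.6 and 74.5 CPM in all 12 libraries. It had 62.6, 71.7 and 63.1 CPM in *rad30Δ* libraries after DSB induction against 68.5, 69.5 and 70.9 CPM in WT libraries after DSB induction, and 65.2, 74.5 and 71.3 CPM in *rad30Δ* libraries in G2/M arrest against 71.7, 72.7 and 72.5 CPM in WT libraries in G2/M arrest. Both pairs of groups overlapped. After DSB induction, *HIR2* was called higher in *rad30Δ* than in WT without *rad30Δ* replicate 3 (0.20, adjusted p = 0.0456 by edgeR). The INO80 genes, with the ATPase *INO80*, the actin-related *ARP5* and *ARP8* and the HMG-box *NHP10*, had values between -0.21 and 0.10. The strongest of these was *INO80* itself in G2/M arrest, with 123, 143 and 120 CPM in *rad30Δ* libraries against 147, 153 and 147 CPM in WT libraries, groups that were apart and a log2 fold change of -0.21 ± 0.07 (adjusted p = 0.0973 by edgeR). Between the strains after DSB induction, *IOC2* had 131, 125 and 139 CPM in *rad30Δ* libraries against 151, 145 and 159 CPM in WT libraries. The groups were apart, with a log2 fold change of -0.20, and the interaction value of *IOC2* was -0.29. *ISW1*, *IOC3*, *IOC4*, *ISW2* and *CHD1* had log2 fold changes of at most 0.18 in size. That value was of *CHD1* between the strains after DSB induction, with 139, 138 and 131 CPM in *rad30Δ* libraries against 150, 153 and 158 CPM in WT libraries, apart (-0.18 ± 0.07, adjusted p = 0.0963 by edgeR). *ISW2* had 116, 115 and 103 CPM in *rad30Δ* libraries after DSB induction against 115, 114 and 128 CPM in *rad30Δ* libraries in G2/M arrest, overlapping groups (-0.10 ± 0.07, adjusted p = 0.462 by edgeR). *SPT6*, the elongation chaperone of H3-H4, had 157, 146 and 163 CPM in WT libraries after DSB induction against 173, 181 and 193 CPM in WT libraries in G2/M arrest, also apart (-0.23 ± 0.09, adjusted p = 0.119 by edgeR). *RTT106* came near the threshold between the strains after DSB induction, with 78.3, 100.6 and 94.2 CPM in *rad30Δ* libraries against 108, 103 and 111 CPM in WT libraries and a log2 fold change of -0.24 ± 0.09 (adjusted p = 0.0558 by edgeR).

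Other genes of the same systems were read from lists. Of 9 genes for core histones and H2A.Z, 5 were lower in *rad30Δ* in G2/M arrest and the same 5 after DSB induction, among them *HHF1*, *HTB1*, *HHT1* and *HTB2*. The shares of all genes lower were 6.1% in G2/M arrest and 11.8% after DSB induction. The median over the 9 was -0.34 and -0.28, against -0.00 and 0.00 over all genes. Summed, the 9 reached 3396 to 3783 CPM in *rad30Δ* libraries and 4255 to 4799 CPM in WT libraries in G2/M arrest. H3 and H4, which Asf1, CAF-1 and HIR carry, are each encoded by a pair of genes. In G2/M arrest the log2 fold changes were -0.42 ± 0.08 for *HHT1* and -0.53 ± 0.07 for *HHF1*, and -0.08 ± 0.09 for *HHT2* and -0.16 ± 0.07 for *HHF2*, which were not called. Of 13 other RSC subunits, 0 were called between the strains in G2/M arrest and 1 in each direction after DSB induction, *RSC6* at 0.40 ± 0.09 and *RTT102* at -0.23 ± 0.07. After DSB induction 11.6% of all genes were higher and 11.8% lower. *RSC6* was lower in WT after DSB induction (-0.32 ± 0.09), and *RSC3*, a zinc cluster subunit, was lower in *rad30Δ* after DSB induction (-0.26 ± 0.07). In these comparisons with G2/M arrest, 6.29% and 2.65% of all genes were lower. Of 11 other INO80 and SWR1 subunits, *IES5* was lower in *rad30Δ* in G2/M arrest (-0.28 ± 0.07) and *IES3* was lower in WT after DSB induction (-0.31 ± 0.09). The shares of all genes lower there were 6.1% and 6.29%. The 3 other ISW2 subunits gave no call.

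Of 19 other chaperones and histone-handling factors, 3 were higher and 4 lower in *rad30Δ* than in WT after DSB induction, against 11.6% and 11.8% of all genes. *HAT2*, a subunit of the Hat1 acetyltransferase of H4, was higher (0.32 ± 0.09), as were the elongation factor *SPT5* (0.32 ± 0.09) and *SPT10*, an activator of histone genes (0.75 ± 0.21). *CHZ1*, a chaperone of H2A.Z that delivers it to SWR1, was lower (-0.32 ± 0.08). After DSB induction relative to G2/M arrest, *HAT2* was higher (0.57 ± 0.09) and *CHZ1* lower (-0.34 ± 0.08) in *rad30Δ*, and *SPT5* was lower in WT (-0.35 ± 0.09). None of the 19 was called between the strains in G2/M arrest, against 6.1% lower and 4.71% higher over all genes. Of 23 markers of cell cycle stage, 4 were lower in *rad30Δ* in G2/M arrest (17.4%, against 6.1% of all genes) and 0 higher, namely 2 of 10 G1/S genes, 1 of 7 G2/M genes and 1 of 6 M/G1 genes. Summed, the 10 G1/S genes reached 761 to 868 CPM in *rad30Δ* libraries against 903 to 965 CPM in WT libraries in G2/M arrest. Their median log2 fold change was -0.00, so the lower sum does not hold across the list. The 6 M/G1 genes summed to 873 to 1046 CPM in *rad30Δ* against 1078 to 1212 CPM in WT. For the 7 G2/M genes the sums were 1235 to 1300 CPM against 1235 to 1420 CPM. The part of these genes in the results above was not tested.

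Coding length was set against the log2 fold change over the 41 genes, whose lengths ran between 282 and 4947 bp with a median of 1878 bp. Genes are not independent replicates, and they share the libraries. Pearson's r was 0.11 between the strains in G2/M arrest and 0.28 between the strains after DSB induction. It was -0.07 for the change after DSB induction in WT and 0.16 for that in *rad30Δ*. Without the 3 genes under 600 bp, r was 0.13, 0.10, -0.29 and -0.41 in the same order, so that Pearson's r in *rad30Δ* turned without *NHP6A*, *NHP6B* and *SWC7*, while Spearman's rho there was -0.26 with them and -0.42 without. Over all 6108 genes with a length, r was -0.04, 0.09, -0.11 and 0.01.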

How the data were processed

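The authors deposited counts of reads per gene, not normalized. Paired-end reads of enriched mRNA had gone through cutadapt for trimming, HISAT2 for alignment to sacCer3, Picard for removal of duplicates and featureCounts for counting. Gene lengths came from another deposited column, except that of *SWC7*, which was taken from R64. Columns of the authors' own comparisons hold fold changes and p-values and were not used. The sources used here do not give tool versions or the strand setting.

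The 6490 genes with at least 10 reads over 12 libraries were scaled by TMM and fitted as 4 groups in edgeR 4.0.16 (R 4.3.3, limma 3.58.1). The 4 comparisons and their interaction were tested by quasi-likelihood with Benjamini-Hochberg adjustment. The study's own tool, DESeq2 (1.42.0), was an alternative, as were DESeq2 size factors, other count filters, a fit of the compared groups alone, a replicate block and each library left out. RPKM is CPM per kb of length. Any of the 41 genes could be named, with values in every library for each gene called, for *HIR1*, and for the gene of smallest p in complexes without a call. Up to 4 called genes of each other list and comparison were named. The members and lists were chosen with earlier results of these data known. Simulated counts with 200 changed genes gave a recovery of 82% at 1.5-fold and 96% at 2-fold between the strains in G2/M arrest, 76% and 97% between the strains after DSB induction, and 51% and 91% for the interaction. False calls were 3.26% to 7.65% of calls. Changed genes were drawn from those with enough reads, and all groups had the same base levels and 1 spread per gene. The wider spread of *rad30Δ* libraries after DSB induction and changes under 1.5-fold were therefore not simulated. Depth limits precision for genes with few reads such as *SWC7*. No 2 libraries were identical (0 of 66 pairs).

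Replicate numbers pair the samples only where residuals of equal numbers correlate. In *rad30Δ* in G2/M arrest and after DSB induction r was 0.19, 0.15 and 0.34. In WT it was 0.04, 0.10 and 0.00, and between the strains equal numbers gave -0.01 to 0.16, so these were not taken as pairs. Python 3.11.15 was used for sequences and figures.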

Additional observations from a re-analysis of the deposited data

How the results depend on the processing

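No called change of the 41 genes turned its direction under the 18 alternatives, while the number called moved. In *rad30Δ* against WT in G2/M arrest, 4 genes were lower, and 2 to 5 with 1 library left out. After DSB induction, 9 were lower and 2 higher, with 3 lower when the compared groups alone were fitted, and 5 to 10 lower and 1 to 3 higher with 1 library left out. In WT after DSB induction, 1 was higher and 2 lower, with 2 higher in DESeq2, 4 higher and 5 lower when the compared groups alone were fitted, and 1 to 2 higher and 0 to 4 lower with 1 library left out, while the median moved between -0.0373 and 0.0121. In *rad30Δ* after DSB induction, 0 were higher and 1 lower, with 0 to 1 higher and 1 to 2 lower with 1 library left out. The interaction called 0, with 1 higher in DESeq2, and 0 to 1 lower with 1 library left out. Calls over all genes also moved when *rad30Δ* replicate 3 after DSB induction was left out. Between the strains after DSB induction, 1037 were lower and 968 higher, against 769 and 756 with it. In G2/M arrest they were 576 and 528, against 396 and 306. The change in WT gave 730 and 711, against 408 and 394, and that in *rad30Δ* 305 and 321, against 172 and 239. The interaction gave 65 and 76, against 4 and 0. For DESeq2, other libraries and the compared groups alone they are not given. The counts of the 41 genes there cannot be set against a share of all genes.

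With the replicate block, 2 genes were higher in *rad30Δ* after DSB induction, 5 lower in *rad30Δ* in G2/M arrest with *BDF1* added, and 3 lower in WT after DSB induction with *RSC2* added. Over all genes, the block gave 296 higher, 422 lower and 541 lower in the same order, against 239, 396 and 408 without it. It changed no other call. Numbers pair the libraries in *rad30Δ* only, and there every library had its highest correlation with the library of equal number.

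Without genes under 600 bp, the correlation of length and fold change was 0.10 between the strains after DSB induction (0.28 with them), -0.29 in WT after DSB induction (-0.07), -0.41 in *rad30Δ* after DSB induction (0.16) and 0.0023 for the interaction (0.20). The 153 changes of sign were all of values that were not called, the largest 0.43 in size. The cause of these changes was not tested. Fewer libraries leave less to estimate the spread, and at 3 libraries per group changes of 1.5-fold are recovered in part.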
